A study of Mus musculus with 16 samples.

Results

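The Toll-like receptor genes are the 9 genes Tlr1, Tlr2, Tlr3, Tlr4, Tlr6, Tlr7, Tlr8, Tlr9 and Tlr13, chosen by symbol from the 13085 genes of the normalized expression table and followed across all 16 libraries. All 9 were listed, and all 9 passed the filter of 1 count per 1000000 reads (CPM) or more in 2 or more libraries, which 12782 genes passed. Toll-like receptors are transmembrane proteins that bind conserved microbial molecules through leucine-rich repeats and signal through a cytoplasmic TIR domain. Tlr1, Tlr2, Tlr4 and Tlr6 act mainly at the cell surface, where Tlr2 pairs with Tlr1 or Tlr6 to bind bacterial lipopeptides and Tlr4 binds lipopolysaccharide with its partner Ly96 (MD-2). Tlr3, Tlr7, Tlr8, Tlr9 and Tlr13 sense nucleic acids inside endosomes, and in monocytes and macrophages both groups drive cytokine and interferon production.

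The libraries were made from monocytes of C57BL/6 mice that were wild type (NFAM1+/+) or NFAM1-/-, cultured for 6 or 24 h with no agent or with IFN-γ and MegaCD40L (1 ug/mL), a multimeric CD40 ligand. IFN-γ is the main cytokine activator of monocytes and macrophages, and CD40 is a receptor through which T cells activate them. The NFAM1-/- line carried a CRISPR deletion of exons 2 and 3 of Nfam1, a receptor gene with an ITAM motif, and both genotypes came from crosses of NFAM1+/- mice. The design gave 2 libraries for each of 8 groups of genotype, stimulus and time, and so 4 libraries for each stimulus and time. The labels call the cells blood monocytes, whereas the study's methods describe monocytes isolated from bone marrow with an enrichment kit. The monocytes came from 4 NFAM1+/+ and 6 NFAM1-/- mice, but no source tied libraries to mice. Libraries of different conditions may therefore share a mouse, and the p-values measure the spread between these libraries, which may be technical. The ages of the mice were not given in the sources used here.

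Library titles and genotype tags named the same genotype in 12 libraries and different genotypes in 4, all at 24 h. Libraries 44 and 56 were titled WT and tagged NFAM1-/-, and libraries 46 and 58 were titled KO and tagged wild type. The groups below follow the titles. Nfam1 itself had 432 and 408 CPM in the wild-type libraries and 299 and 321 CPM in the NFAM1-/- libraries without stimulus at 6 h, a log2 difference of -0.44 (SE 0.08, adjusted p = 0.0514, limma with Benjamini-Hochberg adjustment over all genes tested). With stimulus at 6 h the same groups had 133 and 129 CPM against 135 and 127 CPM. At 24 h without stimulus, Nfam1 had 463 CPM in library 44, 495 in library 45, 441 in library 43 and 391 in library 46. With stimulus at 24 h it had 271 CPM in library 56, 252 in library 57, 201 in library 55 and 223 in library 58, so both libraries titled WT were above both titled KO at 24 h (adjusted p = 0.348 without and 0.0676 with stimulus, limma). The reads cover the whole gene, including exons that were not deleted, so Nfam1 is a weak check of the labels.

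Each library held 48295939 to 88514341 reads on listed genes. The 7 monocyte markers examined summed to 20979 to 23064 CPM without stimulus and 8084 to 10036 CPM with it at 6 h, and to 25861 to 29559 and 8414 to 11646 CPM at 24 h, but they did not move one way. Lyz2, the most abundant without stimulus, fell from 15690 to 17380 CPM to 2667 to 4159 CPM at 6 h, and Csf1r, Ccr2, Itgam and Cd68 also fell, whereas Ly6c2 rose from 345 to 503 CPM to 2200 to 2505 CPM and Fcgr1 from 28.03 to 35.9 CPM to 620 to 760 CPM (limma, adjusted p under 0.05). The B cell genes Cd79a and Cd79b summed to 1.02 to 17.4 CPM, and Ms4a1 and Pax5 were not listed. None of 3 NK cell markers was listed, Cd3d, Cd3e and Cd3g were not listed, the 2 listed T cell genes summed to at most 6.79 CPM, and the 2 listed erythroid genes to at most 34.9 CPM. The 6 neutrophil markers summed to 92.4 to 202 and 74.5 to 293 CPM without and with stimulus at 6 h, and to 482 to 851 and 90.2 to 153 CPM at 24 h. In bulk libraries such as these, fewer cells of a type and less RNA per cell cannot be told apart.

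Promoter sequences are shown for Tlr9 and Tlr8, which moved in opposite directions with the stimulus, and for Tlr6, whose window held overlapping matches to an interferon element. Each window holds the 250 bases before a RefSeq transcript start in GRCm38.p6, written 5' to 3' on the strand of the gene, and none of these bases lies in an annotated exon. Capitals mark matches, on either strand, to the letters TTCNNNGAA (GAS, the IFN-γ-activated site), GAAANNGAA (a core of the interferon-stimulated response element, ISRE), GGGANTTTC (kB-like) or GAGGAA (a core bound by PU.1, a factor of the monocyte lineage).
Tlr9, chr9:106222348-106222597, plus strand: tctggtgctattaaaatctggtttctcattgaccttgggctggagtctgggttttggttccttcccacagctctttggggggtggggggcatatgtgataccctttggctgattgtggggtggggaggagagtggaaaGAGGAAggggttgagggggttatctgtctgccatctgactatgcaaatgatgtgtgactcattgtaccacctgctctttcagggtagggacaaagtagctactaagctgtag
Tlr8, chrX:167264330-167264579, minus strand: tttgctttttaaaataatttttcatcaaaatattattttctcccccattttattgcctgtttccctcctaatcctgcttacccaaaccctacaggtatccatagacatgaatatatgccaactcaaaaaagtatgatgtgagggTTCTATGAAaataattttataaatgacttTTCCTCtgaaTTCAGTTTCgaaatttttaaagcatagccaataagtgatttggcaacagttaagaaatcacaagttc
Tlr6, chr5:64959167-64959416, minus strand: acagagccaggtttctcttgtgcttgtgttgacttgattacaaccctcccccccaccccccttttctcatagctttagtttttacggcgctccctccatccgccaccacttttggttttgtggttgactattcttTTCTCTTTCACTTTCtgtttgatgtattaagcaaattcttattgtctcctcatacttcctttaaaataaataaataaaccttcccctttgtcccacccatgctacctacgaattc
The Tlr9 window held a PU.1 core that began 112 bases before the start. The Tlr8 window held a GAS match at 106 bases, a PU.1 core at 77 bases and an ISRE core at 67 bases before the start. The Tlr6 window held 2 ISRE cores at 115 and 109 bases before the start, which overlapped. This window lies inside the annotated Tlr6 gene, chr5:64952031-64960097 on the minus strand, so its start is an internal one. Of all 32851 promoter windows of the same length, 7.02% held the GAS letters, 7.13% the ISRE core, 0.941% the kB-like letters and 23.3% the PU.1 core. In all, 7 of the 9 members had 9 windows in the table, and Tlr4 and Tlr7 had none there. Among the windows not shown, Tlr1 held a GAS match at 228 bases in one window and a PU.1 core at 23 bases in the other, Tlr13 a PU.1 core at 83 bases, and Tlr3 a kB-like match at 211 bases, while Tlr2 and the other Tlr6 window, chr5:64960049-64960298, held none of the 4. Windows not shown can lie in exons. Annotated exons held 211 of the 250 bases of the Tlr1 window with the GAS match and 178 of those of the Tlr3 window. A match is a run of letters and not a measured binding site.

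On the same reference (GENCODE vM21, GRCm38), Tlr1 at chr5:64924679-64933563 and Tlr6 at chr5:64952031-64960097 were neighbours 18.5 kb apart on the minus strand. Tlr8 at chrX:167242696-167264329 and Tlr7 at chrX:167304929-167330558 were 40.6 kb apart, also on the minus strand, and Tlr13 lay elsewhere on the X chromosome at chrX:106143204-106160493. Tlr2 lay at chr3:83836272-83841767, Tlr3 at chr8:45395665-45411080, Tlr4 at chr4:66827584-66930284 and Tlr9 at chr9:106222598-106226883. Libraries were not stranded, so reads of a gene and of any transcript on its other strand cannot be told apart.

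Among the receptors of endosomes, Tlr3 and Tlr9 rose with IFN-γ plus CD40L at both times, and Tlr8 fell at both. The rises were larger at 6 h than at 24 h, while the fall of Tlr8 was larger at 24 h. Tlr7 fell at 24 h, and Tlr13 fell by less than 2-fold at both times on the deposited scale. Of the surface receptors, Tlr1, Tlr4 and Tlr6 rose more than 2-fold at 6 h, and Tlr2 fell by less than 2-fold at 24 h, again on the deposited scale. In these comparisons a gene passed at an adjusted p under 0.05 and was called when its change was also at least 2-fold, by limma's moderated test over 8 title groups with Benjamini-Hochberg adjustment over all genes tested.

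At 6 h, 5 of the 9 members were called higher (Tlr1, Tlr3, Tlr4, Tlr6 and Tlr9), against 19.1% of all genes tested. By the same rule 1 member, Tlr8, was called lower, against 20.6% of all genes. Counting every change with an adjusted p under 0.05, 5 members were higher and 2 lower (35% and 43.3% of all genes). The 4 stimulated libraries lay above all 4 unstimulated ones in 5 members and below them in 2 (32.5% and 39.4% of all genes). The median log2 change was 1.29 over the members and -0.13 over all genes. At 24 h, 2 members were called higher (Tlr3 and Tlr9; 14.6% of all genes) and 2 lower (Tlr7 and Tlr8; 18.7% of all genes). Changes with an adjusted p under 0.05 were then 4 higher and 4 lower (38.3% and 36.5% of all genes), with a median of 0.22 over the members and 0.01 over all genes. The groups did not overlap in 3 members that were higher and 4 that were lower (35.4% and 33.5% of all genes).

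**Figure D1:**
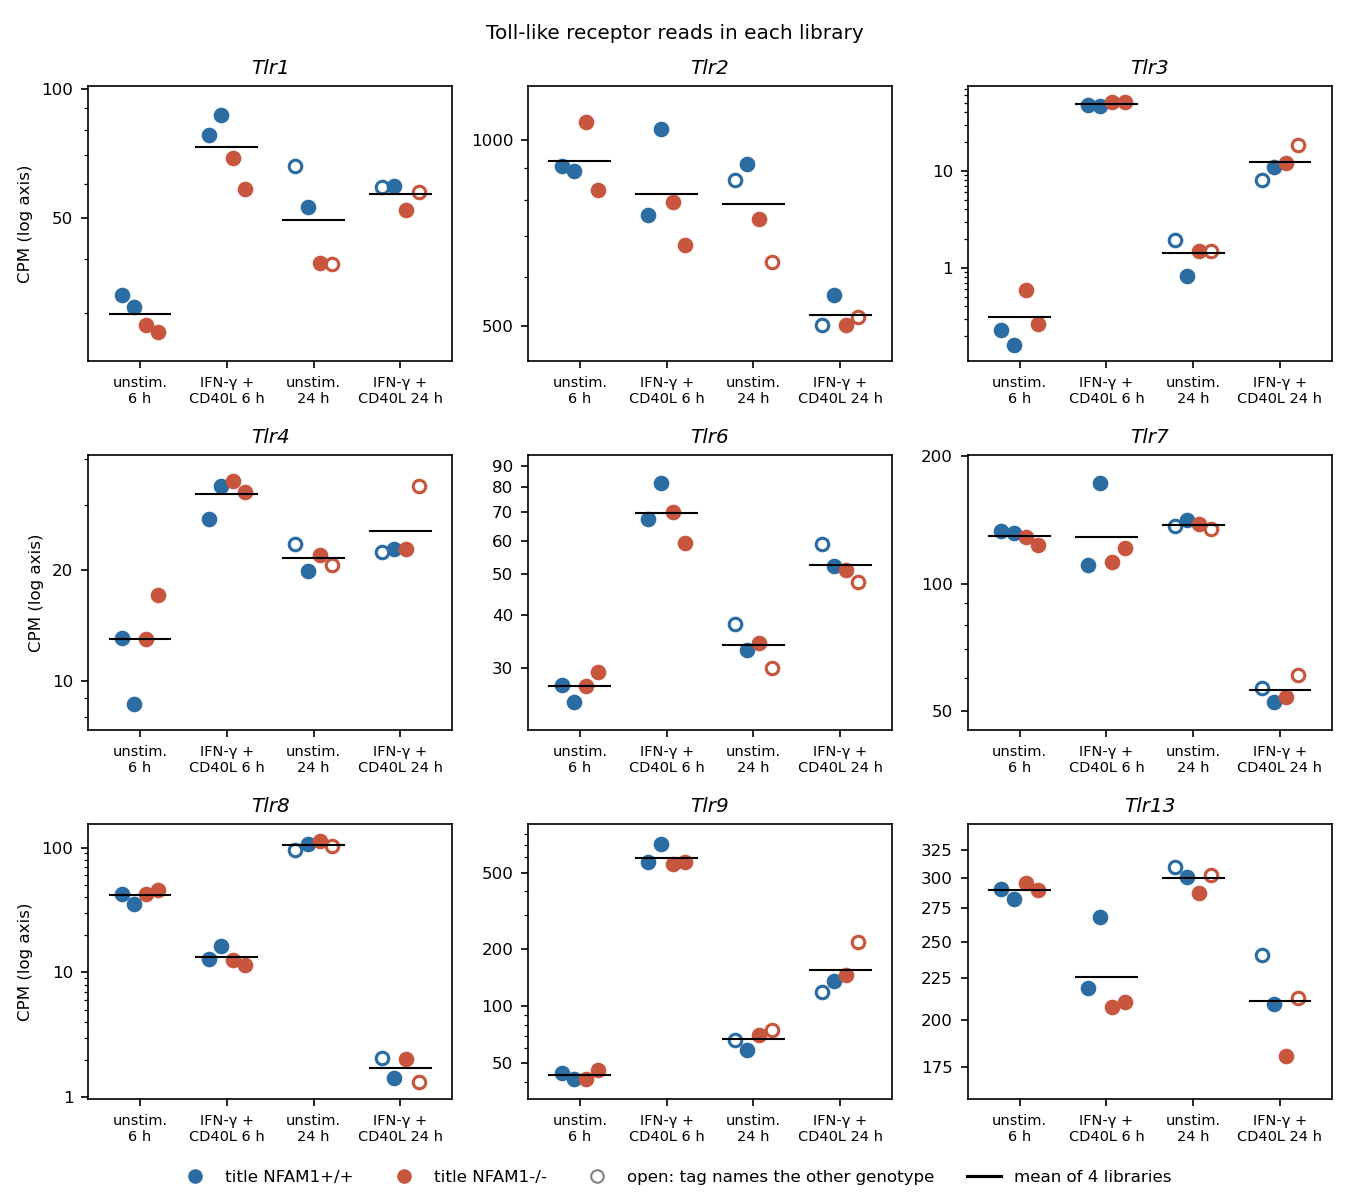
Deposited CPM of the 9 Toll-like receptor genes on a log axis, 1 panel a gene, for the 4 libraries of each stimulus and time, coloured by the genotype of the title. Open symbols are the 4 libraries whose tag names the other genotype and lines are means of 4 libraries. Tlr3 and Tlr9 sit highest with stimulus at 6 h, whereas Tlr8 sits lowest with stimulus at 24 h, at 1.33 to 2.08 CPM.

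Tlr3 binds double-stranded RNA and signals through Ticam1 (TRIF). Without stimulus at 6 h it had 0.230 and 0.160 CPM in the wild-type libraries and 0.592 and 0.262 CPM in the NFAM1-/- libraries, from 10 to 68 reads a library. With stimulus at 6 h it had 46.7 and 47.2 CPM in wild type and 51.1 and 50.7 CPM in NFAM1-/-, from 2506 to 3158 reads. Every stimulated library was far above every unstimulated library, and the log2 change was 7.44 (SE 0.28, 174-fold, adjusted p = 1.1e-11, limma). At 24 h Tlr3 had 1.48, 1.95, 0.830 and 1.47 CPM in libraries 43 to 46 without stimulus. The stimulated libraries 55 to 58 had 12.1, 7.96, 10.9 and 18.4 CPM. The groups again did not overlap, with a log2 change of 3.10 (SE 0.28, 8.55-fold, adjusted p = 2.2e-07, limma). Tlr3 is also abundant in conventional dendritic cells, of which 4 markers summed to 28.7 to 36.6 CPM without and 33.1 to 47.0 CPM with stimulus at 6 h, and to 78.0 to 167 and 31.8 to 37.1 CPM at 24 h. At 6 h Xcr1 went from 0.769 to 1.30 CPM to 3.95 to 8.47 CPM and Clec9a from 3.43 to 3.84 CPM to 14.8 to 21.7 CPM with stimulus. Zbtb46 went from 2.40 to 4.50 CPM to 8.57 to 14.5 CPM, while Flt3 went from 19.5 to 29.7 CPM to 2.58 to 5.05 CPM. At 24 h Zbtb46 again rose and Flt3 fell without overlap, whereas Xcr1 and Clec9a overlapped between the groups. The part of such cells in the Tlr3 values was not tested.

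Tlr9 binds unmethylated CpG DNA. Without stimulus at 6 h it had 44.4 and 41.5 CPM in wild type and 41.3 and 46.3 CPM in NFAM1-/-. With stimulus the wild-type libraries had 709 and 569 CPM and the NFAM1-/- libraries 554 and 565 CPM. All 4 stimulated libraries were above all 4 unstimulated ones, and library 26, at 709 CPM, was the highest. The log2 change was 3.78 (SE 0.11, 13.8-fold, adjusted p = 4.1e-13, limma). At 24 h it had 70.7, 66.0, 58.5 and 74.8 CPM in libraries 43 to 46 and 145.5, 118, 136 and 216 CPM in libraries 55 to 58. The change was 1.16 on the log2 scale (SE 0.11, 2.23-fold, adjusted p = 2.4e-07, limma), and library 58 was the highest of the stimulated group. The summed CPM of 5 plasmacytoid dendritic cell markers, a cell type rich in Tlr7 and Tlr9, also moved with the stimulus. They summed to 51.0 to 65.7 CPM without stimulus and 465 to 589 with it at 6 h, and to 127 to 165 and 660 to 774 CPM at 24 h. The 5 did not move alike. At 6 h Bst2 went from 21.6 to 31.7 CPM to 350 to 453 CPM, and Tcf4 from 17.4 to 22.7 CPM to 86.3 to 117 CPM. Spib (6.58 to 11.7 and 4.81 to 9.82 CPM) and Ccr9 (0.966 to 2.39 and 1.56 to 4.44 CPM) overlapped. At 24 h Bst2 rose from 56.2 to 94.8 CPM to 507 to 605 CPM, and Spib from 7.55 to 11.2 CPM to 97.0 to 148 CPM. Tcf4 then fell and Ccr9 overlapped. Siglech, a defining marker of that cell type, had 1.29 to 5.88 CPM over all 6 h libraries, 11.0 to 23.9 CPM without stimulus at 24 h and 2.64 to 3.19 CPM with it. The part of such cells in the Tlr9 values was not tested.

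Tlr7 and Tlr8 are related receptors for single-stranded RNA and its breakdown products. Tlr8 had 42.6 and 35.5 CPM in wild type and 42.3 and 45.6 CPM in NFAM1-/- without stimulus at 6 h. With stimulus it had 16.2 and 12.7 CPM in wild type and 12.7 and 11.6 CPM in NFAM1-/-. Every stimulated library was below every unstimulated one, and Tlr8 fell by 1.65 on the log2 scale (SE 0.14, 3.13-fold, adjusted p = 9.4e-08, limma). At 24 h it had 113, 96.1, 107 and 104 CPM without stimulus and 2.03, 2.08, 1.44 and 1.33 CPM with it, the latter from 96 to 149 reads a library. The log2 change at 24 h was -5.95 (SE 0.14, 61.9-fold lower, adjusted p = 1.3e-13, limma). Tlr7 had 133, 132, 129 and 123 CPM in libraries 1 to 4 without stimulus at 6 h. The stimulated libraries 26, 10, 11 and 12 had 173, 111, 112 and 121 CPM, library 26 above and the others below every unstimulated library. The log2 difference was -0.03 (SE 0.10, 95% interval -0.24 to 0.19, adjusted p = 0.826, limma). The result depended on single libraries and on the scaling. It was -0.19 without library 26 (adjusted p = 0.0088, limma) and 0.13 without library 10 (adjusted p = 0.0421, limma), which both passed in opposite directions. With all libraries it was -0.76 when each library was scaled to its own total of reads (adjusted p = 2.1e-06, limma) and -0.51 after quantile normalization (adjusted p = 6.7e-05, limma). At 24 h Tlr7 had 138, 137, 142 and 134 CPM without stimulus and 53.9, 56.8, 52.7 and 60.9 CPM with it, groups that did not overlap. It fell by 1.30 on the log2 scale (SE 0.10, 2.46-fold, adjusted p = 3.5e-08, limma).

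Tlr13, which recognizes a sequence of bacterial 23S ribosomal RNA, varied least of the 9 members over the 16 libraries on the deposited scale (SD 0.25 of log2 CPM). It had 290.0, 282, 296 and 289.8 CPM without stimulus at 6 h and 268, 219, 208 and 210 CPM with it. It fell by 0.36 on the log2 scale (SE 0.07, adjusted p = 2.7e-04, limma), with no overlap between the groups. At 24 h it had 287, 309, 301 and 302 CPM without stimulus and 180, 241, 209 and 213 CPM with it, also without overlap. The log2 change at 24 h was -0.52 (SE 0.07, adjusted p = 1.2e-05, limma). Tlr7, Tlr8 and Tlr13 are on the X chromosome. Xist had 201 to 394 CPM in all 16 libraries, and none of 4 Y-linked genes examined was listed.

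Tlr2, the shared partner of the lipopeptide receptors, had 910 and 891 CPM in wild type and 1072 and 829 CPM in NFAM1-/- without stimulus at 6 h. With stimulus it had 1044 and 757 CPM in wild type and 794.5 and 677 CPM in NFAM1-/-. The groups overlapped, with a log2 difference of -0.19 (SE 0.10, 95% interval -0.41 to 0.03, adjusted p = 0.108, limma). Leaving out library 26 gave -0.31 (adjusted p = 0.0092, limma), and leaving out library 4 gave -0.28 (adjusted p = 0.0275, limma). Tlr2 passed as lower at 6 h under other scalings, at -0.92 with own-total scaling (adjusted p = 3.4e-07, limma) and at -1.22 after quantile normalization (adjusted p = 9.0e-09, limma). At 24 h Tlr2 had 744, 862, 914 and 634 CPM without stimulus and 501, 502, 560.0 and 516 CPM with it, all below the unstimulated libraries. It fell by 0.59 on the log2 scale (SE 0.10, adjusted p = 1.5e-04, limma).

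Tlr1 and Tlr6, which pair with Tlr2 for triacylated and diacylated lipopeptides, rose together at 6 h. Tlr1 had 32.9 and 30.8 CPM in wild type and 28.1 and 27.0 CPM in NFAM1-/- without stimulus, and 87.0, 77.9, 69.0 and 58.2 CPM in the same order with it. The log2 change was 1.29 (SE 0.08, 2.44-fold, adjusted p = 1.4e-09, limma). Tlr6 had 27.4, 25.1, 27.3 and 29.5 CPM without stimulus and 81.7, 67.3, 69.9 and 59.1 CPM with it. Its log2 change was 1.34 (SE 0.08, 2.53-fold, adjusted p = 3.1e-09, limma), and for both genes every stimulated library was above every unstimulated one. At 24 h Tlr6 had 34.5, 38.3, 33.2 and 30.0 CPM without stimulus and 51.1, 59.0, 52.1 and 48.0 CPM with it, a log2 change of 0.63 (SE 0.08, adjusted p = 1.2e-05, limma). Tlr1 had 39.1, 66.0, 53.0 and 39.0 CPM without stimulus at 24 h and 52.0, 58.9, 59.2 and 57.5 CPM with it, so its groups overlapped. Its log2 difference of 0.24 (SE 0.08, adjusted p = 0.0105, limma) passed the test, but not without library 45 (0.16, adjusted p = 0.0619, limma). Nor did it pass after quantile normalization (0.068, adjusted p = 0.414), with own-total scaling (-0.091) or by the tags (adjusted p = 0.135), all by limma.

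Tlr4 had 13.1, 8.69, 13.04 and 17.1 CPM in libraries 1 to 4 without stimulus at 6 h and 33.7, 27.4, 34.7 and 32.4 CPM with it. The groups did not overlap, and the log2 change was 1.34 (SE 0.15, 2.53-fold, adjusted p = 1.1e-06, limma). At 24 h it had 22.0, 23.6, 19.9 and 20.7 CPM without stimulus and 22.8, 22.4, 22.8 and 33.7 CPM with it, in overlapping groups. The log2 difference was 0.22 (SE 0.15, 95% interval -0.09 to 0.54, adjusted p = 0.183, limma), and library 58, at 33.7 CPM, stood above the other 3. Without library 55 the difference was 0.36 (adjusted p = 0.0373, limma).

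**Figure D2:**
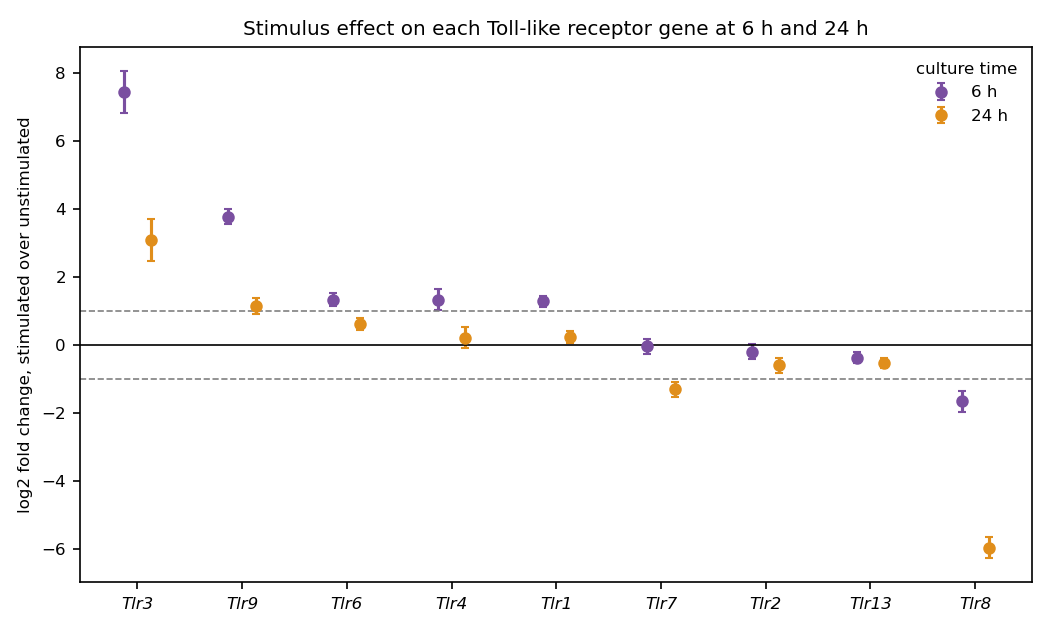
Log2 fold change of each Toll-like receptor gene with IFN-γ plus CD40L, stimulated minus unstimulated, at 6 h and at 24 h, 4 libraries against 4. Points are limma estimates, bars 95% intervals and dashed lines a 2-fold change. On the deposited scale shown, the 24 h value lies below the 6 h value for all 9 genes, from 7.44 to 3.10 for Tlr3 and from -1.65 to -5.95 for Tlr8.

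On the deposited scale the stimulus effect at 24 h was below that at 6 h for each of the 9 members. The difference of the effects passed the test in 8 of them, Tlr13 excepted. By the fold rule 6 members were called lower and 0 higher in this test, against 18.2% and 13.3% of all genes tested, and 8 passed as lower and 0 as higher against 32% and 35.2% of all genes. The largest differences, on the log2 scale, were -4.35 for Tlr3 (SE 0.40, adjusted p = 4.9e-07, limma) and -4.30 for Tlr8 (SE 0.20, adjusted p = 9.0e-10, limma), one from a smaller rise and the other from a larger fall. Tlr9 followed at -2.62 (SE 0.15), Tlr7 at -1.27 (SE 0.14), Tlr4 at -1.12 (SE 0.21) and Tlr1 at -1.04 (SE 0.11). Tlr6 at -0.71 (SE 0.12) and Tlr2 at -0.40 (SE 0.15, adjusted p = 0.0274, limma) differed by less than 2-fold, and Tlr13 at -0.15 did not pass (adjusted p = 0.184, limma). The Tlr2 value did not pass when library 2, 4, 26, 11, 43, 45 or 56 was left out, with a range of -0.51 to -0.28 over all libraries left out in turn, nor by the tags (adjusted p = 0.0728, limma). The median was -1.12 over the members and 0.04 over all genes. With own-total scaling the median of all genes was 0.44, and 3 members were called lower. Tlr2 was then at -0.0015 (adjusted p = 0.993, limma), and Tlr13 at 0.24 passed as higher (adjusted p = 0.0247, limma). After quantile normalization Tlr2 was at 0.076, and Tlr13 at 0.21 again passed as higher (adjusted p = 0.0426, limma).

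The scaling of the deposited values bears on the stimulus effects. Reads on listed genes divided by the scaled library size were 0.756 to 0.775 without stimulus and 1.24 to 1.32 with it at 6 h, and 0.776 to 0.788 and 0.970 to 0.997 at 24 h. When each library was scaled to its own total, the median log2 change of all genes moved by -0.74 at 6 h and by -0.35 at 24 h, and 2 members were called higher and 2 lower at 6 h. Tlr1, Tlr4 and Tlr6 were then at 0.56, 0.61 and 0.61 on the log2 scale at 6 h, below a 2-fold rise, and Tlr13 at -1.09 was past a 2-fold fall. Own-total scaling moves all genes of a library nearly alike, so values relative to the median of all genes cannot change much by it. On that relative scale Tlr3 was at 7.58, Tlr9 at 3.92, Tlr6 at 1.48, Tlr4 at 1.47, Tlr1 at 1.42, Tlr7 at 0.11, Tlr2 at -0.06, Tlr13 at -0.23 and Tlr8 at -1.51 at 6 h. Quantile normalization, which moves genes by their rank, did change relative values, most for the abundant members. Relative to the median of all genes at 6 h it put Tlr2 at -0.99, Tlr13 at -0.89 and Tlr7 at -0.28, while Tlr3 at 7.51, Tlr9 at 3.36, Tlr4 at 1.65, Tlr6 at 1.41, Tlr1 at 1.34 and Tlr8 at -1.31 kept their direction. At 24 h it put Tlr2 at -1.12, Tlr13 at -0.89, Tlr7 at -1.62, Tlr8 at -6.00, Tlr3 at 3.35 and Tlr9 at 0.99. The size of the 6 h changes of Tlr2 and Tlr13 and the direction of that of Tlr7 therefore rest on the scaling. At 24 h own-total scaling put Tlr9 at 0.82, below a 2-fold rise.

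Culture for 24 h instead of 6 h also moved the members, in a different pattern with and without stimulus. Without stimulus 2 members were called higher, Tlr3 and Tlr8, and 0 lower, against 13.2% and 7.76% of all genes tested. Tlr3 rose by 2.29 on the log2 scale (4.89-fold, adjusted p = 9.0e-06, limma) from the few reads given above. Tlr8 rose by 1.34 (2.53-fold, adjusted p = 2.0e-06, limma), from a mean of 41.5 ± 4.30 CPM to 105 ± 6.92 CPM (SD, n = 4). Tlr4, Tlr1, Tlr9 and Tlr6 rose by 0.77, 0.70, 0.63 and 0.31, so that 6 members passed as higher and 0 as lower, against 34.3% and 30.1% of all genes. Tlr7 at 0.09, Tlr13 at 0.05 and Tlr2 at -0.24 (adjusted p = 0.0583, limma) did not pass. With stimulus 4 members were called lower and 0 higher, against 17.2% and 16.5% of all genes. These were Tlr8 at -2.96 (adjusted p = 2.7e-10), Tlr3 at -2.05 (adjusted p = 1.5e-05), Tlr9 at -1.99 (adjusted p = 8.4e-10) and Tlr7 at -1.18 (adjusted p = 9.7e-08), all by limma. Tlr2 at -0.64, Tlr6 at -0.40, Tlr1 at -0.35 and Tlr4 at -0.35 passed with smaller changes, making 8 lower and 0 higher against 36.7% and 39.7% of all genes, and Tlr13 at -0.10 did not (adjusted p = 0.198, limma). These smaller changes rest on the deposited scale. With own-total scaling Tlr6 was at -0.024 (adjusted p = 0.796, limma), Tlr1 at 0.027 and Tlr4 at 0.022. Quantile normalization put Tlr2 at -0.15 (adjusted p = 0.116, limma). Handling that differed between the 6 h and 24 h cultures cannot be told apart from time.

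Levels of different genes were compared as CPM per kilobase of exon (union of exons, GENCODE vM21). Without stimulus at 6 h Tlr2 was the most abundant member, at 307 ± 34.3 CPM per kb (SD, n = 4), or 68.3% of the summed level of the 9 members. Tlr13 followed at 67.2 ± 1.28 and Tlr7 at 31.7 ± 1.09 CPM per kb. Tlr9 at 12.5 ± 0.690 and Tlr8 at 11.6 ± 1.20 overlapped between libraries, and Tlr1 at 8.88, Tlr6 at 7.33, Tlr4 at 2.34 and Tlr3 at 0.0598 CPM per kb came below them. With stimulus at 6 h Tlr2 remained the highest at 271 ± 52.6 CPM per kb, but Tlr9 was now next at 172 ± 21.1, and the shares of the sum were 46.0% for Tlr2 and 29.5% for Tlr9. Tlr13 at 52.6 and Tlr7 at 31.7 CPM per kb came next, then Tlr1 at 21.8 and Tlr6 at 18.6, which overlapped, and Tlr3 at 9.40, Tlr4 at 5.77 and Tlr8 at 3.71 CPM per kb.

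At 24 h without stimulus the order per kilobase was Tlr2 at 262 ± 41.5 CPM per kb, Tlr13 at 69.7, Tlr7 at 33.8, Tlr8 at 29.3, Tlr9 at 19.4, Tlr1 at 14.7, Tlr6 at 9.13, Tlr4 at 3.87 and Tlr3 at 0.275. The libraries of Tlr9 and Tlr1 overlapped. With stimulus at 24 h Tlr2 had 172 ± 9.24 CPM per kb. Tlr13 at 49.0 and Tlr9 at 44.3 ± 12.4 overlapped, as did Tlr1 at 17.01 with Tlr6 at 14.1, and Tlr6 with Tlr7 at 13.7. Tlr4 at 4.58, Tlr3 at 2.36 and Tlr8 at 0.480 ± 0.109 CPM per kb were the lowest. Tlr8 thus moved from the fourth place without stimulus to the last place with it.

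Per kilobase, the 5 endosomal receptors made up 27.5% of the summed level of the 9 members without stimulus at 6 h (range 24.9 to 29.6% over 4 libraries). Their share was 46.1% with stimulus at 6 h (44.5 to 49.1%), and the groups did not overlap. The rise came mainly from Tlr9, whose mean share went from 2.797% to 29.45%. Tlr3 also gained share, from 0.013% to 1.632%. The mean shares of Tlr7 (7.092% to 5.365%), Tlr8 (2.592% to 0.632%) and Tlr13 (15.04% to 8.984%) were lower with stimulus. At 24 h the shares of the 5 receptors together were 34.8% without (31.4 to 39.7%) and 34.5% with stimulus (31.8 to 38.6%). The ratio of Tlr7 to Tlr8 per kilobase was 2.77 ± 0.37 and 8.50 ± 0.91 without and with stimulus at 6 h, and 1.16 ± 0.072 and 29.9 ± 7.9 at 24 h (SD, n = 4). The ratio of Tlr9 to Tlr7 was 0.394 and 5.52 at 6 h and 0.576 and 3.20 at 24 h. By contrast, the ratio of Tlr1 to Tlr6 ranged only from 1.17 to 1.60 over the 4 condition means, and from 1.02 to 1.92 over single libraries.

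**Figure D3:**
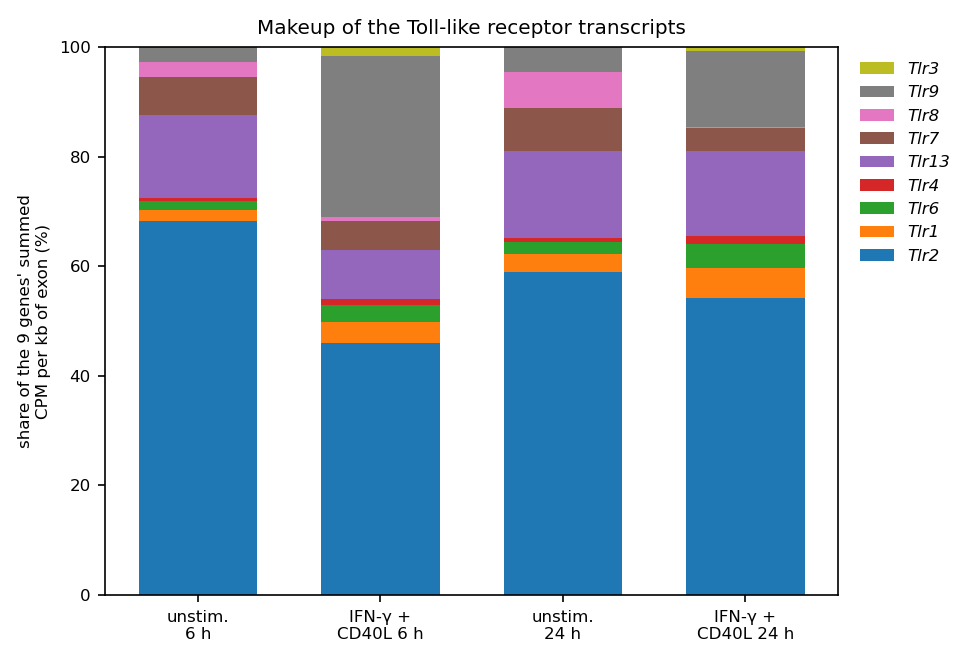
Mean share of each Toll-like receptor gene in the summed CPM per kilobase of exon of the 9 genes, in percent, over the 4 libraries of each stimulus and time. Tlr2 takes 68.3% without and 46.0% with stimulus at 6 h, while Tlr9 takes 29.5% with stimulus at 6 h.

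Genotype was compared within each stimulus and time, 2 libraries against 2 by title. No member was called in any of the 4 comparisons, against 0.0861% of all genes without and 0% with stimulus at 6 h, and 0.289% and 0.579% at 24 h. The number of members with an unadjusted p under 0.05 was 2, 2, 2 and 1 in that order (limma), against 10.1%, 14.6%, 10.9% and 15.6% of all genes. Tlr1 was lower in both libraries titled KO than in both titled WT in all 4 comparisons, with the values given above. Of all genes, 20.3%, 18.9%, 23.5% and 23.2% had both KO libraries lower in the same order, and the share lower in all 4 was not computed. Grouped by tag, the Tlr1 libraries overlapped between genotypes in both 24 h comparisons. Tlr3 was higher in both libraries titled KO in each comparison except that without stimulus at 24 h, where the groups overlapped. The share of all genes higher in both KO libraries is not given here. By tag, the Tlr3 libraries overlapped with stimulus at 24 h, and without it both tagged NFAM1-/- were higher. The log2 differences of Tlr1 were -0.21 (SE 0.11, adjusted p = 0.572) and -0.38 (SE 0.11, adjusted p = 0.168) without and with stimulus at 6 h, where titles and tags name the same genotype (limma). Over both 6 h conditions together, a comparison added after the values were seen, Tlr1 differed by -0.29 (SE 0.08, adjusted p = 0.108, limma).

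At 24 h without stimulus Tlr1 was lower in NFAM1-/- by title by 0.60 on the log2 scale, and this was the only one of the 36 values of 9 members in 4 comparisons that passed (log2 difference -0.60, SE 0.11, adjusted p = 0.0179, limma). Of all genes, 0.954% passed in that comparison, 2.1% with stimulus at 24 h, and 0.156% and 0% without and with stimulus at 6 h. By the genotype tags the Tlr1 difference was 0.16, in the other direction. Without the 4 libraries with conflicting labels it was -0.44 (adjusted p = 0.729, limma), from 1 library against 1 with the spread taken from the other groups. With stimulus at 24 h Tlr1 differed by -0.11 (adjusted p = 0.711, limma).

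**Figure D4:**
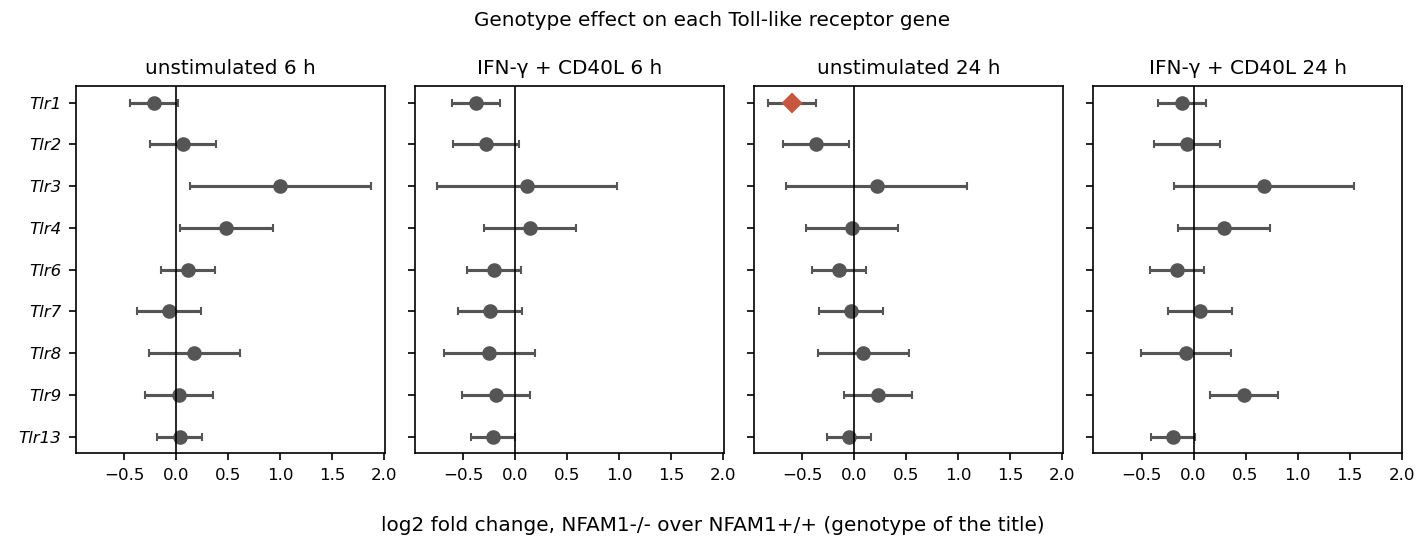
Log2 difference of each Toll-like receptor gene between genotypes by title, NFAM1-/- minus NFAM1+/+, in the 4 conditions, 2 libraries against 2. Points are limma estimates and bars 95% intervals, and the diamond marks the value with an adjusted p under 0.05, Tlr1 without stimulus at 24 h at -0.60.

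The other members with an unadjusted p under 0.05 did not pass after adjustment. Tlr3 and Tlr4 were at 1.00 (SE 0.40, adjusted p = 0.423) and 0.48 (SE 0.21, adjusted p = 0.456) without stimulus at 6 h by limma, Tlr3 from 10 to 68 reads. Tlr13 was at -0.21 (adjusted p = 0.339, limma) with stimulus at 6 h, and Tlr2 at -0.37 (adjusted p = 0.356, limma) without stimulus at 24 h. Tlr9 was at 0.49 (SE 0.15, adjusted p = 0.118, limma) with stimulus at 24 h, and at -0.39 by the tags. The difference between genotypes in the stimulus effect at 6 h was negative in all 9 members, from -0.89 to -0.17. It was also negative in 6156 of the 12782 genes tested. The 9 values rest on the same 8 libraries, so their directions are not independent. The smallest adjusted p was 0.607, and 0 of 9 members had an unadjusted p under 0.05 (limma), against 8.53% of all genes. Within wild type and NFAM1-/- separately, the 6 h stimulus effects were 7.89 and 6.996 for Tlr3, 3.89 and 3.68 for Tlr9 and -1.44 and -1.86 for Tlr8 on the log2 scale.

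Of 55 genes that act with or after Toll-like receptors, grouped by role, 54 were listed and tested. At 6 h 18 were called higher and 5 lower with stimulus (19.1% and 20.6% of all genes), and at 24 h 15 higher and 6 lower (14.6% and 18.7% of all genes). Their median log2 changes were 0.51 and 0.40, against -0.13 and 0.01 over all genes. Under other scalings the 6 h counts became 9 higher and 12 lower (own-total) and 10 higher and 8 lower (quantile), so the excess of rises turned with the former and was smaller with the latter. Of 6 transcription factors, 5 were called higher and 0 lower at 6 h, and 3 higher and 0 lower at 24 h. Irf7, which acts after Tlr7 and Tlr9 in interferon induction, went from 31.6 to 41.6 CPM without stimulus to 2211 to 2905 CPM with it at 6 h (log2 change 6.05, SE 0.16, adjusted p = 1.5e-13, limma). It rose by 4.51 at 24 h, and Irf8, a factor of the myeloid lineage, by 3.36 at 6 h and 2.13 at 24 h.

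Of 5 tested adaptors, 2 were called higher at 6 h and 1 at 24 h (19.1% and 14.6% of all genes). Myd88, the adaptor of all members except Tlr3, rose from 136 to 155 CPM to 808 to 866 CPM at 6 h (log2 change 2.51, SE 0.05, adjusted p = 4.6e-15, limma) and by 1.40 at 24 h. Pik3ap1 (BCAP), an adaptor to phosphoinositide 3-kinase, rose by 2.51 at 6 h. Ticam1, the adaptor of Tlr3, was named for that role after its values were seen, and had 45.1 to 53.5 CPM without and 36.4 to 57.4 CPM with stimulus at 6 h (log2 difference -0.17, adjusted p = 0.0843, limma). Of 16 kinases and ligases, 4 were called higher and 0 lower at 6 h (19.1% and 20.6% of all genes). At 24 h 5 were called higher and 0 lower (14.6% and 18.7% of all genes). Peli1, a ubiquitin ligase, rose by 3.51 and Irak2 by 1.67 at 6 h, and Tbk1 and Traf3 rose by 1.46 and 1.43 at 24 h.

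Of 6 co-receptors, 3 were called higher and 2 lower at 6 h (19.1% and 20.6% of all genes). At 24 h 1 was called higher and 4 lower (14.6% and 18.7% of all genes). Cd14, which delivers lipopolysaccharide to Tlr4, went from 648 to 807 CPM without stimulus to 50.0 to 89.7 CPM with it at 6 h (log2 change -3.50, SE 0.22, adjusted p = 2.1e-09, limma). Cd180, a Toll-like receptor homologue without a TIR domain, rose by 2.49 at 6 h and 1.68 at 24 h. Its partner Ly86 rose by 1.53 at 6 h and fell by 1.56 at 24 h (adjusted p = 3.1e-09, limma). Cd36, a scavenger receptor used with Tlr2 and Tlr6, fell by 1.73 at 6 h and 2.78 at 24 h, and Lbp fell by 2.16 at 24 h. Ly96, the partner of Tlr4, was also named after its values were seen, and had 9.64 to 10.9 CPM without and 7.78 to 9.80 CPM with stimulus at 6 h.

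Of 10 genes of trafficking and processing, 1 was called higher and 2 lower at 6 h (19.1% and 20.6% of all genes). At 24 h 1 was called higher and 1 lower (14.6% and 18.7% of all genes). Lgmn, an asparagine endopeptidase that can cleave endosomal receptors, went from 334 to 405 CPM to 50.6 to 55.3 CPM at 6 h and from 470.2 to 642 CPM to 13.9 to 35.3 CPM at 24 h. Its log2 changes were -2.80 (SE 0.13) and -4.72 (SE 0.13), with adjusted p = 8.6e-11 and 4.7e-13 (limma). Ctsl, a cathepsin, fell by 1.82 at 6 h, and Slc15a3, a transporter of the endolysosome, rose by 2.36 at 6 h and 1.24 at 24 h. Unc93b1, the chaperone that carries the endosomal receptors from the endoplasmic reticulum, was likewise named after its values were seen. It had 536 to 582 CPM without and 755 to 842 CPM with stimulus at 6 h, and 919 to 1019 and 675 to 733 CPM at 24 h, log2 changes of 0.53 and -0.45 that both passed the test (adjusted p = 1.9e-07 and 1.2e-06, limma).

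Of 11 inhibitors, 3 were called higher and 1 lower at 6 h (19.1% and 20.6% of all genes). At 24 h 4 were called higher and 1 lower (14.6% and 18.7% of all genes). Socs1, an inhibitor of cytokine receptor and Toll-like receptor signaling, rose from 1.21 to 3.30 CPM to 909 to 1406 CPM at 6 h, by 9.43 on the log2 scale (SE 0.23, adjusted p = 9.0e-14, limma), and by 6.28 at 24 h. Tnfaip3 (A20) rose by 2.83 and 2.34. Sigirr fell by 1.78 at 6 h and Il1rl1 by 2.20 at 24 h, both from under 6 CPM. By title, 0 pathway genes were called between genotypes at 6 h (0.0861% of all genes without and 0% with stimulus). In each 24 h comparison 1 gene was called lower, against 0.289% without and 0.579% with stimulus of all genes called in either direction. These were Ikbke without stimulus (-1.06, SE 0.14, adjusted p = 0.0052, limma) and Cd14 with it (-1.84, SE 0.30, adjusted p = 0.0156, limma). By the tags they were at 0.23 and 0.93. Ikbke did not pass without library 44 (adjusted p = 0.0691, limma), and Cd14 did not pass without library 56 (-1.60, adjusted p = 0.151, limma) or library 58 (-1.15, adjusted p = 0.0658, limma).

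**Figure D5:**
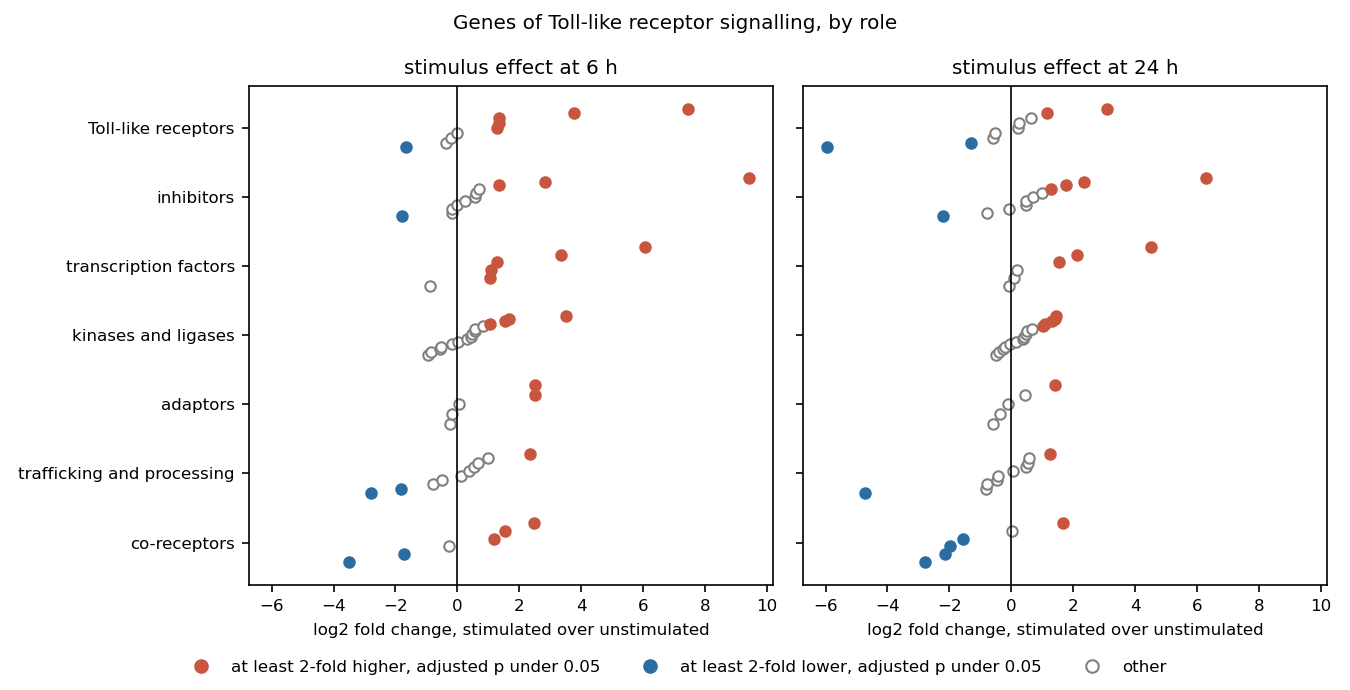
Log2 fold change with IFN-γ plus CD40L of 54 genes that act with or after Toll-like receptors, by role, at 6 h and 24 h, each dot a gene. The transcription factors extend up to 6.05 at 6 h (Irf7) and the inhibitors up to 9.43 (Socs1), while the co-receptors reach down to -3.50 (Cd14).

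For each member, the gene whose log2 CPM pattern over the 16 libraries was nearest, among 12773 genes, was found by the root mean square difference after centring on the mean. Tlr9 was nearest to Peli1, with a difference of 0.175, and Peli1 had means of 33.6 and 380 CPM without and with stimulus at 6 h and 43.2 and 108 CPM at 24 h. Tlr3 was nearest to Mx1, an interferon-induced GTPase, at 0.495, and Mx1 had means of 19.3 and 3671 CPM at 6 h and 70.4 and 775 CPM at 24 h. Tlr8 was nearest to Maml3 at 0.413, with means of 15.02 and 3.22 CPM at 6 h and 29.2 and 0.737 CPM at 24 h. The nearest genes of the others were Zfp319 for Tlr6 (0.112), Cdk9 for Tlr13 (0.112), Sptbn1 for Tlr7 (0.162), Krr1 for Tlr2 (0.169), Anks1 for Tlr1 (0.189) and Wdr25 for Tlr4 (0.217). The distances of Tlr3 and Tlr8 were the largest of the 9. These likenesses are descriptions of 16 libraries that share their conditions.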

How the data were processed

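RNA sequencing was done on polyA libraries that were not stranded, with paired reads of 101 bases. The deposited table holds log2 CPM. Per the study's methods and the submitters' processing notes, the authors used FastQC, STAR (GRCm39), Rsubread counts, edgeR scaling and limma-voom; tool versions and the annotation are not given in the sources used here. Each deposited value was log2 of reads plus 0.5, divided by a scaled library size and scaled to 1000000. This was tested on the values, and all came out as whole reads within 0.05. Depth was 48295939 to 88514341 reads on listed genes, and the reads behind low values are given beside them. Columns were matched to libraries by number, and 17 symbols shown as dates were left as deposited.

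The fit was computed on the log2 CPM in R 4.3.3 with limma 3.58.1 (trend), 1 model over 8 title groups with 8 residual degrees of freedom, on the 12782 genes that reached 1 CPM in 2 or more libraries, which left out 303. It was tested on simulated data. Calls needed 2-fold and an adjusted p under 0.05. Alternatives were other filters, scalings, prior counts, variance models, libraries, leaving out each library, and genotype by tag. Levels per kilobase, positions and promoters came from GENCODE vM21 and RefSeq on GRCm38, not the authors' build. Members and gene lists were chosen with earlier results of these data known. All members were named, and pathway genes were named as the 2 largest rises and falls called in each list, except Ticam1, Ly96 and Unc93b1, named for their roles after their values were seen. Figures were drawn with Python 3.11.15. Doses of IFN-γ differed between the labels and the methods and are not given.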

Additional observations from a re-analysis of the deposited data

Results flagged for a closer look

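In groups of 4 libraries, 36 in all, 2 had a library far from the other 3 by Dixon's criterion, where chance alone gives about 1 in 20 groups. Tlr4 in library 58, stimulated at 24 h, had a log2 CPM of 5.07 against 4.51 for the next and 4.49 for the lowest, a gap of 0.955 of the range. Tlr9 in library 26, stimulated at 6 h, had a log2 CPM of 9.47 against 9.15 for the next and 9.11 for the lowest, a gap of 0.891 of the range. Library 26 was also the highest of its group for Tlr1, Tlr2, Tlr6, Tlr7, Tlr8 and Tlr13, and library 58 the highest of its group for Tlr3, Tlr7 and Tlr9, and it is 1 of the 4 libraries with conflicting genotype labels.

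On the deposited scale the stimulus effect differed between 6 and 24 h in 8 members by the test of the difference itself (limma, adjusted p between 9.0e-10 and 0.0274). The 24 h effect minus the 6 h effect was -4.35 for Tlr3, -4.30 for Tlr8, -2.62 for Tlr9, -1.27 for Tlr7, -1.12 for Tlr4, -1.04 for Tlr1, -0.71 for Tlr6 and -0.40 for Tlr2 on the log2 scale.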

How the results depend on the processing

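Of 1287 alternative values for the members' stimulus and time effects, 1226 kept their direction and their side of an adjusted p of 0.05, 25 no longer passed it, 22 newly passed it and 14 turned in direction. These numbers leave the 2-fold minimum aside, and the counts that follow include it. With no minimum fold, the counts of members called became 2 lower at 6 h, 4 higher and 4 lower at 24 h, 6 higher with time without stimulus, 8 lower with time with stimulus, and 1 lower between genotypes without stimulus at 24 h. With own-total scaling they became 2 higher and 2 lower at 6 h, 1 higher at 24 h and 3 lower for the difference of the stimulus effects. Quantile normalization gave 3 lower at 6 h and 1 higher at 24 h, and log2(CPM + 1) gave 1 higher with time without stimulus. Pathway genes called at 6 h became 9 higher and 12 lower with own-total scaling, and 10 higher and 8 lower with quantile normalization.

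Tlr7 at 6 h was -0.76 with own-total scaling and -0.51 with quantile normalization, which both passed, 0.14 with centring on medians, 0.061 in wild type only, and -0.19 to 0.13 when single libraries were left out, passing at both ends. Tlr2 at 6 h passed at -0.92 with own-total scaling, at -1.22 with quantile normalization and at -0.36 in NFAM1-/- only. At 24 h with own-total scaling Tlr1 was -0.091 and Tlr4 -0.11, and Tlr1 was -0.00076 in wild type only. With time with stimulus, own-total scaling gave Tlr1 0.027, Tlr4 0.022, Tlr6 -0.024 and Tlr13 0.27. Quantile normalization gave Tlr2 -0.15 and Tlr13 0.28. Both Tlr13 values passed as higher, and the others did not pass. For the difference of the stimulus effects, Tlr13 was 0.24 with own-total scaling and 0.21 with quantile normalization, which both passed as higher. Tlr2 was -0.0015 with own-total scaling and 0.076 with quantile normalization. Grouping by tag gave 0.16 for Tlr1, 0.074 for Tlr2 and 0.23 for Ikbke without stimulus at 24 h, and -0.39 for Tlr9 and 0.93 for Cd14 with it. Nfam1 without stimulus at 6 h passed at -0.44 with quantile normalization, log2(CPM + 1), the robust trend and voom weights, and ranged from -0.49 to -0.39 when single libraries were left out. Tlr1 between genotypes without stimulus at 24 h did not pass without library 43, 44 or 46, without the trend, or with the 24 h libraries alone (adjusted p = 0.0510, limma). Ikbke and Cd14 between genotypes at 24 h did not pass without the trend, nor Cd14 with the 24 h libraries alone (adjusted p = 0.0656, limma). Tlr1 and Tlr13 at 6 h with stimulus passed without library 10 (-0.46 and -0.36), and Tlr9 at 24 h with stimulus passed without library 55 (0.77). Tlr4 with time with stimulus did not pass without library 26, 11, 12, 43, 46, 55, 56 or 57. The causes were not tested. No paired analysis was possible because library numbers are not shared between groups and no label ties a library to a mouse. Mice may be shared across conditions. Depth limits Tlr3 without stimulus at 6 h, at 10 to 68 reads.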

Other observations

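Tlr5, Tlr11 and Tlr12 were also listed and are given here with their values seen. Tlr5, the receptor of flagellin, had 1.60 to 3.27 CPM without and 0.437 to 0.841 CPM with stimulus at 6 h, and 2.41 to 3.06 and 0.112 to 2.02 CPM at 24 h. Tlr11, which binds the parasite protein profilin, had 0.159 to 0.524 CPM without and 12.97 to 14.9 CPM with stimulus at 6 h, and 0.968 to 2.04 and 6.61 to 13.1 CPM at 24 h. Tlr12, its partner, had 0.0886 to 0.647 and 11.4 to 13.4 CPM at 6 h, and 0.268 to 0.581 and 8.39 to 27.9 CPM at 24 h. Library 58 was the highest of the stimulated 24 h libraries for all 3.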
